A study of Mus musculus with 6 samples.

Results

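Cytosolic ribosomal proteins are the protein parts of the ribosomes that translate nuclear messages in the cytoplasm. Their genes were taken as all array probes, controls left out, whose symbol is Rpl or Rps followed by a digit, with the stalk genes Rplp0 to Rplp2 and Rpsa added and the S6 kinase genes removed. These were 86 genes with 172 probes on the array, and 85 of them were among the 24409 genes or unnamed probes tested, called all genes from here on. They comprise 43 genes of the large subunit, 30 of the small subunit, the 3 stalk genes and 8 paralogs. The other 2, Rps19bp1 and Rps23rg1, carry a matching name only: the first encodes a binding partner of the small subunit protein Rps19, and the second is a retrogene derived from Rps23. The gene left untested, Rpl10l, a testis-enriched copy of Rpl10, was not well above background in either channel on any of the 6 arrays (0 arrays) with either probe.

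RNA came from retinas of adult male C57BL/6 mice whose right eyes had received an injection into the vitreous 7 days before. The groups were SH-42 and SH-80, compounds known by these codes, each at 1 µM, and a control that the series describes as phosphate-buffered saline, with 12 mice per group and 4 retinas per pool. Each of the 6 dual-colour arrays, 3 per compound, held RNA of a compound group in the green Cy3 channel and control RNA in the red Cy5 channel, per the labels. Since 12 control mice fill 3 pools and 6 arrays carry control RNA, some arrays may share it, and the p-values measure only the spread between these arrays. No array had the dyes exchanged, and the deposited value table runs as Cy5 over Cy3. Which sign means an increase over control is thus uncertain, and a gene is called higher or lower by its Cy3 signal relative to Cy5. A dye effect that is specific to a gene remains in each log ratio and cancels in SH-42 minus SH-80 where it is the same on all arrays.

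Each ribosome joins a small subunit, which decodes the message, to a large subunit, which forms the peptide bond. The ribosomal protein genes are transcribed in nearly every cell at a high and balanced rate, and their messages typically begin with a C followed by a run of pyrimidines, the terminal oligopyrimidine tract. This tract places their translation under the control of the kinase complex mTORC1. In the retina, photoreceptors renew their outer segments continuously and rely on sustained protein synthesis.

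The tract was looked for in the RefSeq windows around annotated transcript starts (GRCm38.p6), which were present for 64 of the members. A C at the first transcribed base followed by 4 bases that are each C or T, read on the transcribed strand, stood at the annotated start of 13 of the 64 genes (20.3%). The share was 3.01% of all 27025 genes with a window and 0 of 69 mitochondrial ribosomal protein genes, which serve the separate ribosome of the mitochondrion. Within 10 bases on either side of the start, the same 5 bases were found for 59.4% of the members, 43.5% of the mitochondrial set and 33.3% of all genes. The following windows, from RefSeq, run from 30 bases before to 20 bases after the annotated start and show 7 members that are described further on and carry the tract at the start, with the pyrimidine run in capitals.
Rpl14, chr9:120571487-120571536, plus strand: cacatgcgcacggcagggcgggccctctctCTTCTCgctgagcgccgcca
Rpl28, chr7:4792935-4792984, plus strand: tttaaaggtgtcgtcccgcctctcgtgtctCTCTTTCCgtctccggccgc
Rplp2, chr7:141447621-141447670, plus strand: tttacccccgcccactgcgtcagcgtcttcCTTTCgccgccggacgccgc
Rps15a, chr7:118116128-118116177, minus strand: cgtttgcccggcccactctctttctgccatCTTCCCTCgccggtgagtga
Rps18, chr17:33955646-33955695, minus strand: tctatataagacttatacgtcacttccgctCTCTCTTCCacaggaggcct
Rps21, chr2:180257349-180257398, plus strand: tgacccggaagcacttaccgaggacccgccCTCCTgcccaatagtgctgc
Rps6, chr4:86857348-86857397, minus strand: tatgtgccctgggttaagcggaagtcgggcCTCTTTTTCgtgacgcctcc

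For comparison, these are the same windows of 3 members described further on that have no such run at their annotated start.
Rpl22l1, chr3:28805478-28805527, plus strand: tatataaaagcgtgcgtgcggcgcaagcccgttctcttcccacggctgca
Rpl23, chr11:97782420-97782469, minus strand: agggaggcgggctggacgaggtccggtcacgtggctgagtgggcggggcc
Rpl27, chr11:101442215-101442264, plus strand: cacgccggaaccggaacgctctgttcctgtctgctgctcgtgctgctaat

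The Rpl22l1 window has its pyrimidine run displaced by a few bases from the annotated start, whereas no match was found within 10 bases for Rpl23 and Rpl27. The log ratios of the members with and without the run at the start overlapped. On the SH-80 arrays the median was 0.15 over the 13 genes with it and 0.17 over the 51 without it, and on the SH-42 arrays the medians were 0.056 and -0.011.

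The spots of these genes were among the brightest of the array. Brightness depends on the probe as well as on the RNA, so this is not a comparison of RNA amounts. Their median log2 signal over both channels was 15.3, against 9.23 over all genes tested, and 89.4% of them lay above 13, against 10.9% of all genes. In the background-corrected signals, the Cy5 median of the members exceeded the Cy3 median by 1.33-fold to 1.86-fold, depending on the array. Over all genes tested the Cy5 median was also higher, by 1.36-fold to 1.64-fold. On SH-80 replicate 3 the excess was smaller for the members, 1.33-fold, than for all genes, 1.42-fold. Loess normalization removes a curve of log ratio against brightness, and at the members that curve lay between -0.34 and -0.54 on the 6 arrays (medians over the members), against -0.16 to -0.21 at all genes tested. The curves of the 6 arrays thus lay further apart at the members than at the typical gene. Leaving all probes of the members out of the loess fit moved their median on an array by at most the step from 0.202 to 0.224, on SH-80 replicate 3.

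**Figure D1:**
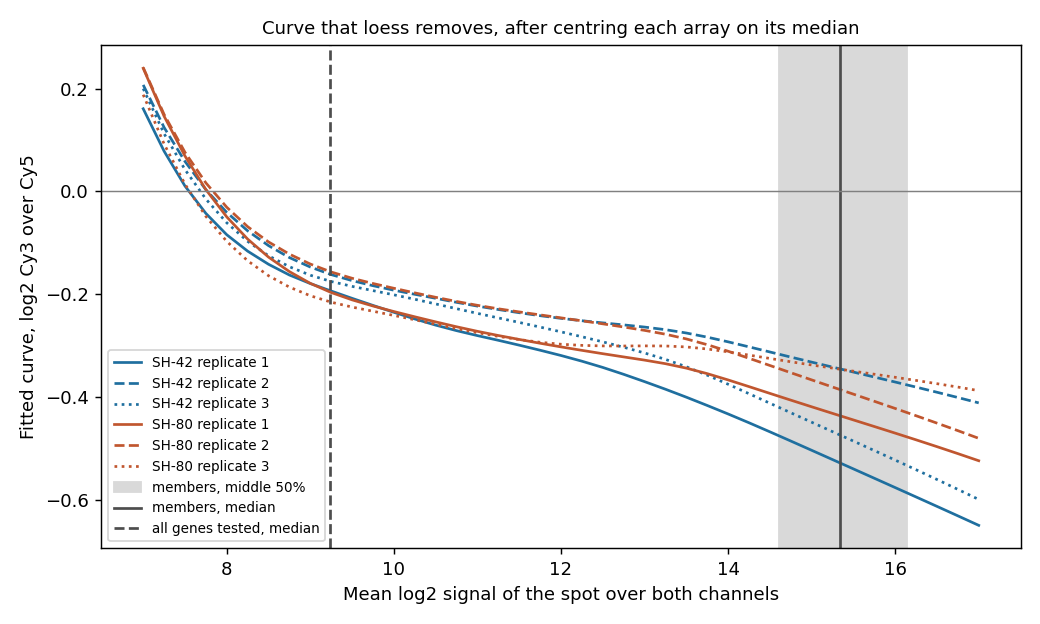
The curve of log2 Cy3 over Cy5 that loess removed from each array (vertical axis) is plotted against the mean log2 signal of a spot (horizontal axis), with 1 line per array, the middle 50% of the 85 members as a grey band and the medians of the members (15.3) and of all genes tested (9.23) as vertical lines. At the members the curves lie lower than at the median gene, and SH-42 replicate 1 is the lowest.

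After loess the members' median log2 ratio differed in sign between arrays. It was -0.10 on SH-42 replicate 1, 0.10 on replicate 2 and 0.059 on replicate 3. On SH-80 replicates 1 to 3 it was 0.14, 0.067 and 0.20. Over all genes the medians lay between -0.033 and -0.021. SH-42 replicate 1 thus stood apart as the array with a negative median, with 25 of 85 members above 0 where the other 5 arrays had 58 to 80. It gave the lowest value of the 6 arrays for 67 of the 85 members, and SH-80 replicate 3 gave the highest for 63. The share over all genes was not computed for these counts. The SD over all genes was 0.50 on SH-42 replicate 1 and 0.26 to 0.36 on the other arrays. Over the whole array, pairs of arrays that included SH-42 replicate 1 had r between -0.16 and 0.16 across genes, and all remaining pairs had r from 0.51 to 0.87, genes not being independent of each other.

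Under median centring, which shifts each array by a constant and keeps the curve, the same spots gave negative medians on every array. They were -0.64, -0.24 and -0.43 on SH-42 replicates 1 to 3 and -0.31, -0.33 and -0.14 on SH-80 replicates 1 to 3, whereas all genes tested had medians of -0.15 to -0.12. No member (0 of 85) was above 0 on SH-42 replicate 1 and 24 were on SH-80 replicate 3. The members' median minus that of all genes was -0.49 to -0.12 on 5 arrays and 0.016 on SH-80 replicate 3. On the 5 arrays other than SH-42 replicate 1 the sign of the family's median thus depended on the dye normalization. SH-42 replicate 1 was lowest and SH-80 replicate 3 highest under both. The 85 members share the arrays and the dyes. Across them, the mean log ratio on the SH-42 arrays correlated with spot brightness at Pearson r of -0.60 under median centring and 0.16 under loess. On the SH-80 arrays r was -0.53 and 0.086. The Spearman rank correlations were -0.68 and -0.20 on the SH-42 arrays and -0.62 and -0.32 on the SH-80 arrays. Under loess the sign of the correlation thus depended on the measure.

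**Figure D2:**
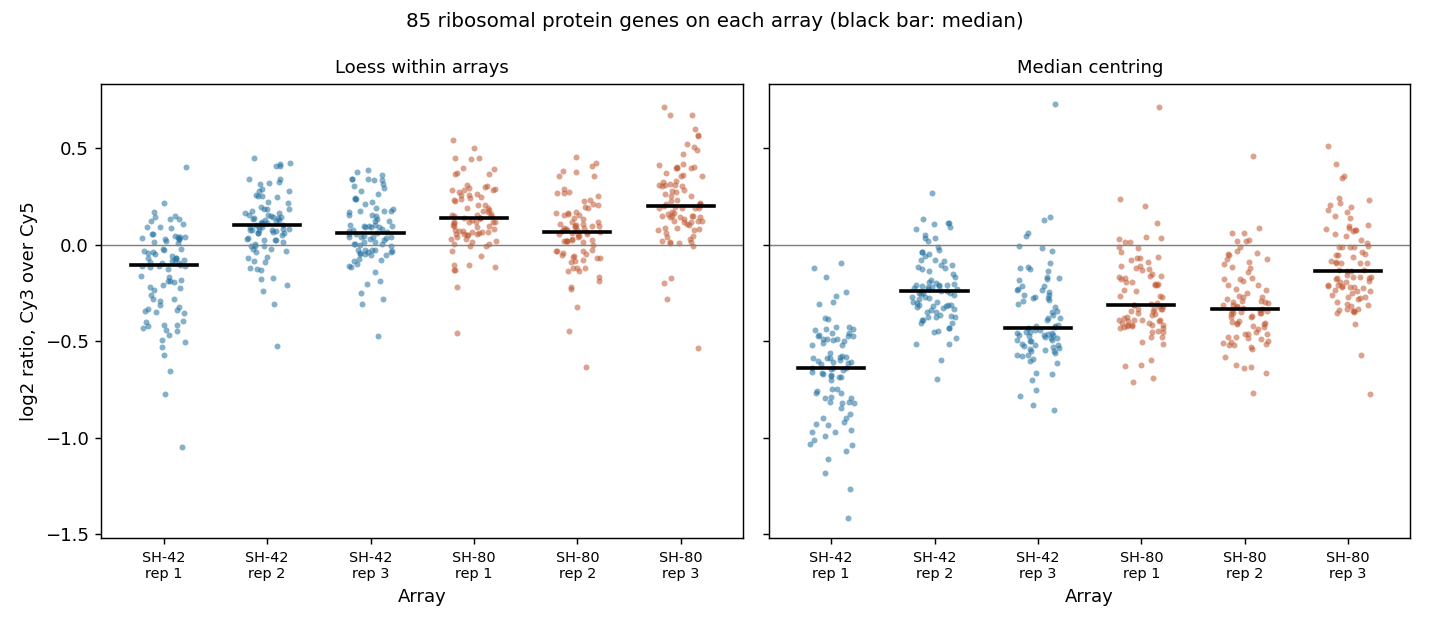
Each point is the log2 ratio of Cy3 over Cy5 of 1 of the 85 members on the named array, after loess (left) or median centring (right), with a black bar at the median and SH-42 in blue and SH-80 in orange. After loess the medians run from -0.10 to 0.20, and after median centring from -0.64 to -0.14.

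The Cy3 channel, which by the labels holds the RNA of the compound groups, differed less between arrays than the Cy5 channel for these genes. After normalization of the single channels, the SD over the 6 arrays had a median of 0.049 log2 units in Cy3 and 0.11 in Cy5 over the 85 members, and 76 of them varied more in Cy5. Among 18461 genes above background in both channels on every array, 90% varied more in Cy5, so the wider Cy5 spread was shared with the bulk of the array. Rps27l, a p53-responsive paralog of Rps27, is an example. Its normalized log2 signal was 12.40, 12.44 and 12.41 in Cy3 and 13.45, 12.15 and 12.07 in Cy5 on SH-42 replicates 1 to 3. On SH-80 replicates 1 to 3 it was 12.44, 12.37 and 12.45 in Cy3 and 11.90, 12.24 and 11.73 in Cy5. The Cy3 values of this gene lay within 0.072 of each other, and its Cy5 value was highest on SH-42 replicate 1. Its log2 ratio of -1.05 on that array, against 0.29 and 0.34 on the other SH-42 arrays and 0.54, 0.13 and 0.71 on the SH-80 arrays, gave no call in any comparison (limma adjusted p = 0.754 for SH-42, 0.28 for SH-80 and 0.698 for their difference).

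On the SH-42 arrays, few ribosomal protein genes passed the threshold, an adjusted p under 0.05 over all genes tested. Rpl3, which reaches close to the peptidyl transferase centre of the large subunit, passed as higher and Rpl23, another large subunit protein, as lower, beside the paralog Rpl39l (lower) and Rps19bp1 (higher). In all, 4 of 85 members passed (limma, Benjamini-Hochberg), 2 higher and 2 lower, against 12.1% of all genes tested, with 4.59% higher and 7.48% lower. An unadjusted p under 0.05 was found for 21 members, against 31.8% of all genes. The median over the members was -0.0025 with 41 of 85 above 0. Over all genes the median was -0.031 with 44.5% above 0. No small subunit gene (0 of 30, limma, 7 with an unadjusted p under 0.05) and no stalk gene (0 of 3, limma, 1 unadjusted) passed. Dropping SH-42 replicate 1 raised the count to 18 (background 23.6%). Dropping replicate 2 or 3 of SH-42 gave 0 (limma, 8 and 10 unadjusted), where 0.0041% and 0.258% of all genes passed. Dropping SH-80 replicate 1, 2 or 3 gave 1 each, where 3.4%, 3.38% and 4.3% of all genes passed. With the local backgrounds left as deposited it was 1, where 0.586% of all genes passed.

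Rpl3 was higher on every array after loess. Its log2 ratio was 0.40, 0.42 and 0.34 on SH-42 replicates 1 to 3 and 0.37, 0.41 and 0.49 on SH-80 replicates 1 to 3. The values of the compounds overlapped. The mean was 0.39 ± 0.052 (SE, n = 3 arrays, limma adjusted p = 0.0136) for SH-42, a ratio of 1.31, and 0.42 ± 0.052 (limma adjusted p = 0.0093) for SH-80, a ratio of 1.34. Under median centring Rpl3 lay at -0.059 and 0.032, with no call in either comparison (adjusted p = 0.547 and 0.745, limma).

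Rpl23 was lower by its brightest probe, at -0.49, -0.31 and -0.31 on the SH-42 arrays and -0.22, -0.32 and -0.20 on the SH-80 arrays. All 6 values were below 0. The fit gave -0.37 ± 0.061 (limma adjusted p = 0.0216) and -0.25 ± 0.061 (adjusted p = 0.0414). Its other probes did not share that direction. They lay at 0.065 and 0.075 on the SH-42 arrays and at 0.23 and 0.21 on the SH-80 arrays, so the gene's direction depended on the probe.

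Rps19bp1 lay between 0.13 and 0.39 on the 6 arrays, with means of 0.28 ± 0.069 for SH-42 (limma adjusted p = 0.04999) and 0.27 ± 0.069 for SH-80 (adjusted p = 0.0453). The paralog Rpl39l, which replaces Rpl39 in germ cells, was not well above background in Cy3 on any array and was above it in Cy5 on all 6. Its measured means on the SH-42 arrays were 6.66 in Cy3 and 7.18 in Cy5, which bounds the Cy5 excess at 1.23-fold at least, taking the higher of the probe's own signal and the lowest signal above background as the Cy3 level. The limma adjusted p of the measured ratio was 0.0278, and no bound above 1 was reached on the SH-80 arrays.

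On the SH-80 arrays, 19 of 85 members passed (limma, Benjamini-Hochberg), 17 of them higher and 2 lower. The background was 18.2% of all genes tested, 5.99% higher and 12.2% lower. An unadjusted p under 0.05 was found for 36 members, against 36.2% of all genes. The members' total was thus close to the background, while their split between directions leaned to higher. In all, 71 of 85 members lay above 0, where 44.5% of all genes did. The members' median was 0.14 beside -0.030 over all genes. After loess, no measured mean of a member reached a ratio of 1.5 in either direction, Rpl39l being known only by its bound. Under median centring the lowest means were -0.89 for SH-42 and -0.70 for SH-80. Under median centring the calls turned: 36 of 85 members passed and all 36 were lower (limma, Benjamini-Hochberg), where 42.7% of all genes passed, 33.1% lower and 9.62% higher (43 members and 51.8% of all genes had an unadjusted p under 0.05). For SH-42 median centring gave 61 of 85, again all lower, against 38.9% of all genes, 29.4% lower and 9.46% higher (68 members and 49.9% unadjusted). Dropping SH-42 replicate 1 raised the loess count for SH-80 to 36 (background 42%), and dropping SH-42 replicate 2 or 3 lowered it to 8 (background 9.37% and 14.4%). It was 0 when SH-80 replicate 1, 2 or 3 was dropped (limma, 15 to 26 unadjusted), where 0.102%, 0.901% and 0.0041% of all genes passed. With the local backgrounds left as deposited it was 11 (background 14.7%). Of the 17 members higher for SH-80 after loess, 9 lay below 0 after median centring and 14 lay above the median of all genes, which was then -0.15. Rpl14, 1 of these 9, then passed as lower, at -0.24 (limma adjusted p = 0.0291), so its call turned with the normalization.

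By arrays, 20 of 85 members were above 0 on all 6, where 13.8% of all genes were, and Rpl23 and, by its measured values, Rpl39l were below 0 on all 6, where 20.6% of all genes were.

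The large subunit supplied 8 of the 17 higher members. Rpl19, a large subunit protein at the junction with the small subunit, lay at 0.03, 0.34 and 0.34 on the SH-42 arrays and at 0.45, 0.42 and 0.56 on the SH-80 arrays. All 3 SH-80 values exceeded all 3 SH-42 values. Its SH-80 mean was 0.48 ± 0.078 (limma adjusted p = 0.0164), and under SH-42 it was 0.24 ± 0.078 (adjusted p = 0.0985). Rpl28 had 0.29, 0.27 and 0.40 on the SH-80 arrays, a mean of 0.32 ± 0.058 (limma adjusted p = 0.0207), and 0.17, 0.32 and 0.19 on the SH-42 arrays, which overlapped these. The other large subunit genes that passed as higher were Rpl18, Rpl7a, Rpl27a, Rpl27 and Rpl14, at 0.19 to 0.37, and Rpl3. Rpl10, which completes the large subunit late in its assembly, had no call. It lay at -0.57, 0.03 and 0.08 on the SH-42 arrays and at 0.29, -0.04 and 0.36 on the SH-80 arrays, so that the value of SH-42 replicate 1 stood below all others.

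Among the small subunit genes, 6 of 30 passed as higher for SH-80 and none as lower. Rps15a had the largest mean of all members, at 0.50 ± 0.116 (limma adjusted p = 0.0356), from 0.45, 0.38 and 0.67. On the SH-42 arrays it lay at -0.10, 0.45 and 0.31. Rps4x, encoded on the X chromosome, lay at 0.40, 0.36 and 0.67 on the SH-80 arrays and at 0.03, 0.41 and 0.36 on the SH-42 arrays, a mean of 0.47 ± 0.098 (limma adjusted p = 0.027) for SH-80. Both genes were again lowest on SH-42 replicate 1. Rps3, which sits at the entry of the message channel, passed at 0.32 ± 0.062 (adjusted p = 0.0225), and Rps18, Rps21 and Rpsa, whose product also occurs as the laminin receptor, passed at 0.23 to 0.39. A second probe of Rps3 lay at -0.0064 and one of Rps18 at -0.0058 on the SH-80 arrays, and the second probe of Rpl14 at -0.016, so those 3 calls rested on the brighter probe.

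Rps6, the substrate of the S6 kinases, lay near 0 by its brightest probe, at 0.09, 0.06 and 0.01 on the SH-42 arrays and 0.01, -0.05 and 0.15 on the SH-80 arrays. The means were 0.054 ± 0.058 and 0.034 ± 0.058 (limma adjusted p = 0.556 and 0.709), with 95% intervals of -0.09 to 0.19 and -0.11 to 0.17. Its 3 probes disagreed more than those of any other member, with means from -0.61 to 0.30 on the SH-42 arrays and from -0.16 to 0.39 on the SH-80 arrays. Under median centring the brightest probe gave -0.42 and -0.37 and passed as lower in both (adjusted p = 0.0089 and 0.0105).

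The stalk genes encode the acidic proteins that recruit elongation factors to the ribosome. Rplp1 passed for SH-80 at 0.46 ± 0.08 (limma adjusted p = 0.0193), from 0.44, 0.36 and 0.57, and all 3 values exceeded the SH-42 values of 0.04, 0.34 and 0.34. Rplp0, the anchor of the stalk and a common reference gene for quantitative PCR, lay at 0.50, 0.08 and 0.60 on the SH-80 arrays and at -0.33, 0.42 and 0.26 on the SH-42 arrays. Its SH-80 mean of 0.39 ± 0.164 did not pass (adjusted p = 0.141, limma), and the means of its 3 probes lay between 0.39 and 0.44 there. Rplp2 had means of 0.11 ± 0.076 and 0.19 ± 0.076 with no call. Under median centring Rplp0 had -0.38 for SH-42 and -0.026 for SH-80.

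Of the 7 paralogs tested, Rpl22l1, a paralog that can take the place of Rpl22, passed as higher for SH-80 at 0.36 ± 0.051 (limma adjusted p = 0.0123), from 0.31, 0.38 and 0.40. The SH-42 values of 0.14, 0.25 and 0.17 all lay below these, with a mean of 0.19 ± 0.051 (adjusted p = 0.0643). Rpl3l, the form of Rpl3 in striated muscle, was not well above background in Cy3 on any array, and no fold could be given. Rps23rg1 passed as lower for SH-80 at -0.48 ± 0.109 (adjusted p = 0.0333, limma), from -0.46, -0.45 and -0.54. On the SH-42 arrays it lay at 0.12, -0.24 and -0.47.

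**Figure D3:**
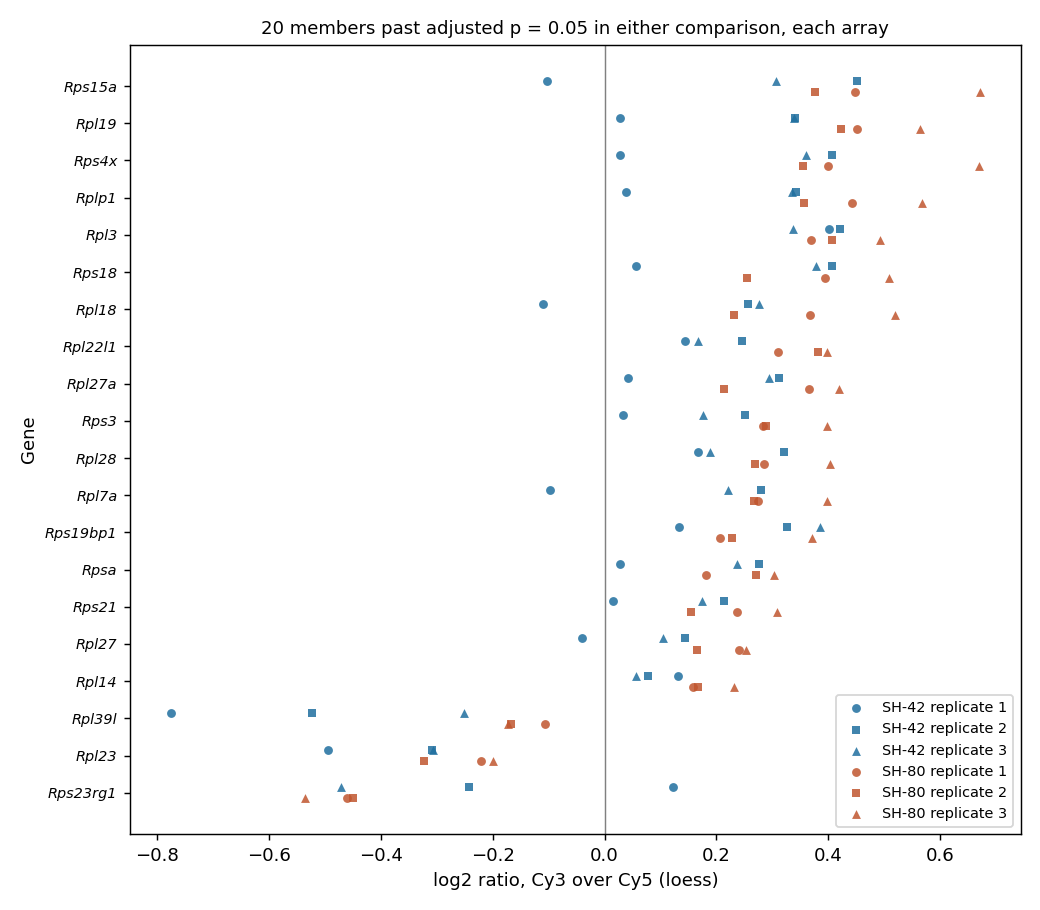
The log2 ratio of Cy3 over Cy5 after loess (horizontal axis) is shown on each of the 6 arrays for the 20 members that passed in either comparison (vertical axis), with SH-42 in blue, SH-80 in orange and 1 symbol per replicate. The 17 members higher for SH-80 lie above 0 on all 3 SH-80 arrays, and for most of them SH-42 replicate 1 is the lowest point.

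SH-42 and SH-80, given at the same concentration and time, were compared directly as SH-42 minus SH-80. After loess the difference was negative for 76 of 85 members and for 11395 of the 24409 genes tested. Its median over the members was -0.12 beside 0.014 over all genes. After median centring the median was -0.19 beside 0.013, where 2 members and 4.02% of all genes had an unadjusted p under 0.05. No member passed (0 of 85, limma, smallest adjusted p = 0.698), and 3 had an unadjusted p under 0.05. Over all genes 0% passed and 4.33% had an unadjusted p under 0.05. Among them was Rpl22l1 at -0.18 (95% interval -0.35 to -0.0018). For Rpl3 the difference was -0.04 (-0.21 to 0.14) and for Rps6 0.02 (-0.18 to 0.22), so these 95% intervals hold differences of either sign. By arrays, all SH-80 values exceeded all SH-42 values for 17 of 85 members, where 5.64% of all genes did so, and the opposite order held for 0 of 85, where 8.74% of all genes had it. Without SH-42 replicate 1 the median difference was -0.062, with 18 members above 0.

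The arrays lay on 2 slides: SH-42 replicates 1 and 2 on slide 1, and SH-42 replicate 3 with all SH-80 arrays on slide 2. Within slide 2, SH-42 replicate 3 had a member median of 0.059 beside 0.067 to 0.20 on the SH-80 arrays. It lay below the SH-80 mean for 73 of 85 members, with a median difference of -0.075, and below every SH-80 array for 35. These counts set 1 SH-42 array against 3 SH-80 arrays. The share over all genes was not computed, so they are not read as a result about the members. With the slide as a fixed term no member passed for SH-80 (0, limma, 10 unadjusted; 0.0041% of all genes passed).

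**Figure D4:**
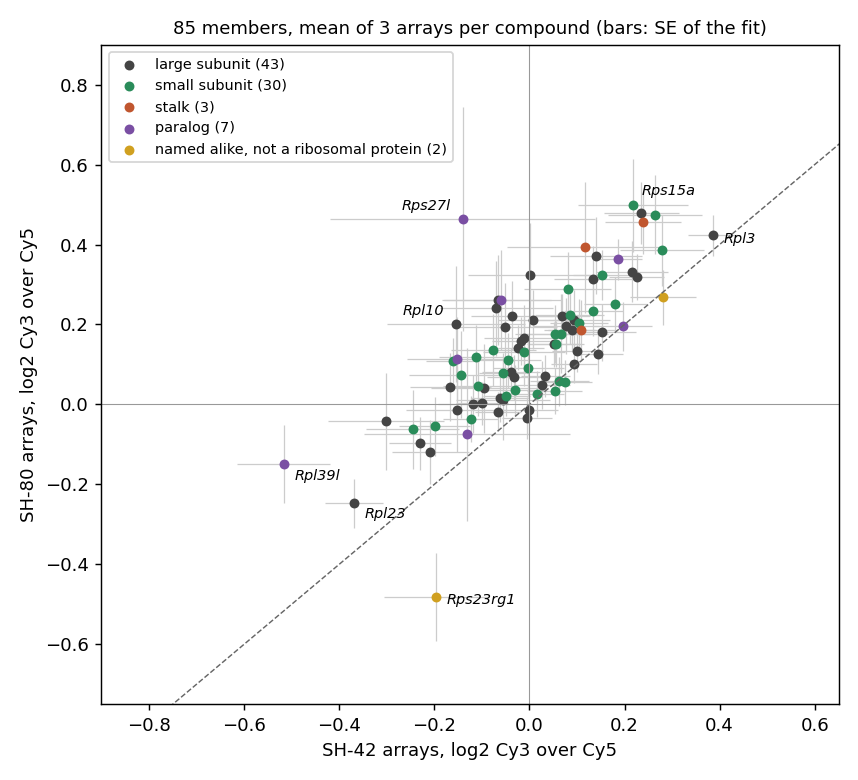
Mean log2 ratio of Cy3 over Cy5 after loess on the SH-42 arrays (horizontal axis) and on the SH-80 arrays (vertical axis) for the 85 members, with bars of 1 SE and colours for the role of the gene. The comparisons may share control RNA, and 76 points lie above the dashed line of equal values.

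In bulk RNA, fewer cells of a type and less RNA per cell cannot be told apart. All 30 retina markers listed were measured, and 28 were above background in Cy3 on every array. Their median log2 ratio was 0.69 on SH-42 replicate 1 and -0.29 to -0.094 on the other 5. Markers of other cells varied between arrays beside the members. The median log2 ratio of 13 microglia markers, of 14 listed, was -1.65 on SH-42 replicate 1, the array with the lowest member median, and 0.44 to 1.24 on the other 5. That of 12 skeletal muscle markers, of 14 listed, was -1.37 on SH-42 replicate 1 and -1.19 on SH-80 replicate 2, the lowest SH-80 array for the members, and 0.18 to 0.24 on the other 4. The 22 lens markers, of 23 listed, lay at 2.76 and 2.67 on SH-80 replicates 1 and 3 and at -0.93 on replicate 2, while the SH-42 arrays gave 1.503, 0.13 and -0.50. Their summed Cy5 signal ranged from 352284 to 1212540 on the SH-42 arrays and from 166376 to 1411490 on the SH-80 arrays. That of the microglia markers ranged from 56615 to 132996 and from 61317 to 72645, and that of the muscle markers from 5236 to 21481 and from 4730 to 24278. The summed Cy3 signal varied less over the 6 arrays. It ranged from 732521 to 1145180 for lens, 64582 to 74184 for microglia and 5066 to 5853 for muscle markers. Which channel holds the compound RNA is known from the labels only and was not tested. The 9 pigment epithelium markers, of 10 listed, lay at 0.11 to 1.16 over the 6 arrays and the 5 red cell markers, of 7 listed, at -0.89 to 0.26. Between 4 and 8 of the muscle markers were above background in Cy3, and all 13 microglia markers were above background in both channels on every array. The part of these cells in the members' values was not tested.

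Of the 52 members with several tested probes, the probe means differed in sign for 24 on the SH-42 arrays and for 14 on the SH-80 arrays, and the median span between the lowest and the highest probe was 0.13 and 0.15. For SH-80 that span is close to the family's median after loess, 0.14. For SH-42 it is larger in size than the family's median, -0.0025. Ribosomal protein genes have many processed copies in the genome, and whether a probe also binds their transcripts was not tested.

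The genes that build and serve the ribosome had calls in shares at or below the background after loess, and more of them lower under median centring. Under median centring 29.4% of all genes were lower and 9.46% higher for SH-42. For SH-80 these shares were 33.1% and 9.62%. Of 36 translation initiation factors, 1 passed as lower for SH-42, and 3 passed as higher and 1 as lower for SH-80 (limma, Benjamini-Hochberg), with medians of 0.061 and 0.12. The lower gene in both was Eif4e, the cap-binding factor, at -0.23 ± 0.052 and -0.27 ± 0.052 (adjusted p = 0.0422 and 0.0231), and Eif3l, a subunit of the initiation complex Eif3, was higher for SH-80 at 0.43 ± 0.082. Under median centring 16 initiation factors were lower (44.4%) and 1 higher for SH-42, and 17 lower (47.2%) and 0 higher for SH-80. Of 11 elongation and release factors 0 and 1 passed, the latter being Eef1g, a subunit of elongation factor 1, at 0.21 ± 0.056 (4 unadjusted for SH-42, limma). Under median centring 6 and 3 were lower (54.5% and 27.3%). None of 9 other genes of terminal oligopyrimidine messages or ribosome-associated proteins passed (0 in each comparison, limma, 1 and 3 unadjusted), the smallest p values being those of Rack1 (-0.23, adjusted p = 0.0796) for SH-42 and Naca (0.17, adjusted p = 0.0795) for SH-80. Under median centring 8 and 5 of these 9 passed, all lower (88.9% and 55.6%).

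Among the ribosome biogenesis factors, Ubtf, which opens ribosomal DNA for RNA polymerase I, lay at -0.63 ± 0.083 for SH-42 (limma adjusted p = 0.0131) and -0.79 ± 0.083 for SH-80 (adjusted p = 0.0068), and it was lower under median centring too, at -1.12 and -1.20. Of the 44 factors, 1 was higher and 3 lower for SH-42, and 3 were higher and 4 lower for SH-80 (15.9%, against 18.2% of all genes). Under median centring 24 and 19 were lower (54.5% and 43.2%, against 29.4% and 33.1% of all genes) and 2 higher in each. Nol6, a nucleolar processing factor, was lower in both, at -0.24 and -0.35. Of 23 genes of the S6 kinases and mTORC1, Rheb, the GTPase that activates mTORC1, was lower in both, at -0.34 ± 0.068 and -0.25 ± 0.068 (adjusted p = 0.0321 and 0.0498), and Rps6ka5 and Deptor were higher for SH-80, at 0.24 and 0.28. Eif4ebp2, a repressor of cap-dependent translation, was lower for SH-80 at -0.30 (adjusted p = 0.048). The list thus had 1 lower gene for SH-42, and 2 higher and 2 lower for SH-80. Under median centring it had 8 lower for SH-42, and 1 higher and 9 lower for SH-80. Those lower shares, 34.8% and 39.1%, were close to the 29.4% and 33.1% of all genes.

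The mitochondrial ribosomal protein genes, the nearest set by function, were split in both comparisons after loess. Of 77 tested, 4 were higher and 3 lower for SH-42, and 7 were higher and 4 lower for SH-80, with medians of -0.029 and 0.060 (9.09% and 14.3% passed, against 12.1% and 18.2% of all genes). Under median centring none were higher and 50 and 44 were lower, 64.9% and 57.1% of them, against 38.9% and 42.7% of all genes passing. Mrpl46 was higher for SH-80 at 0.34 ± 0.056 and Mrpl39 lower at -0.33 ± 0.054 (adjusted p = 0.0172 and 0.0167). The family medians under median centring were -0.30 and -0.23, and for the difference between compounds -0.062 after loess, with 22 of 77 above 0. A negative median under median centring was shared by both ribosomal families but was not particular to them. All genes tested had -0.15 in each comparison. The initiation, elongation, terminal oligopyrimidine, biogenesis and mTORC1 lists had medians from -0.46 to -0.16. The difference between the families was not tested.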

How the data were processed

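RNA of pooled mouse retinas was measured on 6 dual-colour Agilent arrays. The deposited scanner files hold spot intensities of both channels, local backgrounds, other spot flags, a log10 ratio and processed signals, written by Feature Extraction 11.0.1.1 per the file headers (9.3.2.1 per the submitters' processing notes). The deposited value table holds log2 ratios with no stated direction. Set against the scanner values it runs as Cy5 over Cy3 (r 0.9995 to 0.9998), with column medians of -0.0531, -0.0606, -0.0612, -0.0611, -0.0464 and -0.0754. It was used as an alternative. The files hold no gene name column, so symbols came from RefSeq by unversioned transcript accession for 26055 of 39429 probes (66.1%), and the rest entered the tests without a name.

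Median intensities were background-corrected (normexp, offset 50) and loess-normalized within arrays with limma 3.58.1 in R 4.3.3. Controls and flagged spots (0.424%) had weight 0. Backgrounds marked non-uniform (4 to 46 spots per array) were set to the array's median background, since on SH-42 replicate 2 they shifted the correction of the whole array. That step was chosen after seeing the data. A probe was kept where 3 or more of the 6 arrays had it well above background in Cy3 or Cy5, which removed 9974 probes. Shares well above background were 58.3% to 63.1% in Cy3 and 70.9% to 76.7% in Cy5, with 0 saturated spots. The brightest probe stood for a gene. All 24409 genes or unnamed probes were fitted together with 1 term per compound over the 6 arrays, two-sided, with Benjamini-Hochberg adjustment and a threshold of 0.05. The number of arrays limits the precision.

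Genes named by rule were the 4 of smallest p in each direction that passed, or the 3 of smallest p where under 3 passed, with Rpl3, Rpl10, Rplp0 to Rplp2, Rpsa, Rps6 and the paralogs Rpl3l, Rpl10l, Rpl39l, Rpl22l1 and Rps27l always included, and 2 genes per neighbouring list. Other members were named after their values were seen. A result for 1 gene that the rule names is not reported here, and the gene stays in all counts and medians. The members and the lists were chosen with earlier results of these data known. Alternatives were median centring, loess without the members, scale normalization, other background and probe settings, the deposited processed values, slide and replicate blocks, and leaving out each array. The models were tested on simulated log ratios with independent noise and planted shifts. These held no dye curve, shared control RNA or slide, so that test does not bear on the normalization or the design.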

Additional observations from a re-analysis of the deposited data

Results flagged for a closer look

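Rps20, a small subunit protein, stood out because all 3 SH-42 arrays lay below 0 and all 3 SH-80 arrays above 0. It lay at -0.32, -0.01 and -0.01 on the SH-42 arrays and at 0.12, 0.05 and 0.19 on the SH-80 arrays, a difference of -0.23 (95% interval -0.50 to 0.04, limma adjusted p = 0.698). The difference did not pass, and under median centring the gene was below 0 for both compounds, at -0.65 and -0.33.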

How the results depend on the processing

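Of the results, the difference between SH-42 and SH-80 kept its sign and its 0 calls (limma, 0 to 4 unadjusted) under every alternative run, with a median of -0.19 to -0.062. Under median centring 61 members passed for SH-42 and 36 for SH-80, all lower (38.9% and 42.7% of all genes passed), with medians of -0.44 and -0.24. Under median centring without SH-42 replicate 1, chosen after seeing the data, 56 and 53 passed (47.7% and 61.9% of all genes) and the medians were -0.34 and -0.24. The share of all genes that passed follows each count in parentheses. For SH-42, 4 members passed by the main analysis (12.1%), 2 of 83 under a strict filter on dim probes (6.56%), 2 with the slide as a fixed block (4.72%), 2 over the 76 core proteins alone (12.1%), 1 with local backgrounds as deposited (0.586%), and 0 when the 3 SH-42 arrays were fitted alone (0%, limma, 7 members unadjusted). For SH-80, 19 passed by the main analysis (18.2%), 11 with an offset of 0 (15.9%), 7 from the deposited value table (23.1%), 12 of 83 under the strict filter (13.3%), 12 with the mean of a gene's probes (17.4%), 11 with local backgrounds as deposited (14.7%), 33 when the SH-80 arrays were fitted alone (38.2%), and 0 with the slide as a fixed block (0.0041%, limma, 10 members unadjusted). Leaving out each array in turn gave 0 to 18 calls for SH-42 (0.0041% to 23.6%) and 0 to 36 for SH-80 (0.0041% to 42%). Deviations from the group means had r of -0.14, -0.48 and 0.15 across genes between samples of the same replicate number. Not every sample correlated best with its own number. With 3 arrays per compound this check cannot show whether arrays of the same number shared control RNA or a batch. The main fit used no pairing by number. The replicate block gave 0 calls for SH-42 (0% of all genes, limma, 13 unadjusted) and 0 for SH-80 (26 unadjusted). It gave 0 for the difference of the compounds (0 unadjusted). For SH-80 and the difference the share over all genes is not given, so those counts are not read as results about the members. Named genes changed sign as follows, with measured log2 ratios. Those of Rpl3l and Rpl39l come from probes not well above background in Cy3 on any array, so these values are not folds, and their sign changes are not read as changes of direction. Median centring gave, for SH-42, Rpl14 at -0.41, Rpl18 at -0.24, Rpl19 at -0.18, Rpl22l1 at -0.19, Rpl27 at -0.39, Rpl27a at -0.23, Rpl28 at -0.14, Rpl3 at -0.059, Rpl3l at 0.23, Rpl7a at -0.34, Rplp0 at -0.38, Rplp1 at -0.24, Rplp2 at -0.37, Rps15a at -0.20, Rps18 at -0.096, Rps21 at -0.27, Rps3 at -0.25, Rps4x at -0.12, Rps6 at -0.42, Rpsa at -0.33 and, for SH-80, Rpl10 at -0.23, Rpl14 at -0.24, Rpl27 at -0.18, Rpl27a at -0.057, Rpl28 at -0.011, Rpl39l at 0.14, Rpl3l at 0.30, Rpl7a at -0.092, Rplp0 at -0.026, Rplp2 at -0.23, Rps19bp1 at -0.00803, Rps21 at -0.12, Rps3 at -0.029, Rps6 at -0.37, Rpsa at -0.18 and, for SH-42 minus SH-80, Rps6 at -0.046. The deposited value table gave, for SH-42, Rpl27 at -0.00903 and, for SH-42 minus SH-80, Rps19bp1 at -0.011, Rps6 at -0.044. Processed signals gave, for SH-42 minus SH-80, Rps6 at -0.014. The mean of the probes gave, for SH-42, Rpl14 at -0.058, Rps6 at -0.085 and, for SH-80, Rpl23 at 0.064 and, for SH-42 minus SH-80, Rps6 at -0.17. The slide as a fixed block gave, for SH-42 minus SH-80, Rpl3l at 0.39, Rplp2 at 0.055, Rps6 at -0.022. Local backgrounds as deposited gave, for SH-42 minus SH-80, Rps19bp1 at -0.011. Over the fits that each left out 1 array, the lowest and highest values were as follows. For SH-42 they were -0.27 and 0.055 for Rpl10, -0.35 and 0.068 for Rpl3l, -0.38 and 0.31 for Rps27l, -0.036 and 0.34 for Rplp0. For SH-80 they were -0.26 and 0.21 for Rpl3l, -0.023 and 0.076 for Rps6. For SH-42 minus SH-80 they were -0.34 and 0.14 for Rpl3l, -0.14 and 0.018 for Rplp2, -0.17 and 0.00621 for Rps18. In that difference Rpsa had -0.12 and 0.00501, Rps19bp1 -0.039 and 0.088, and Rps6 -0.022 and 0.076. The cause of these changes was not tested. With 3 arrays per compound and no exchanged dyes, the arrays limit the precision, and Rpl39l, Rpl3l and Rpl10l are limited by their signal over background.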
